A study of Macaca mulatta with 136 samples.

Results

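The genes described are 8 transcription factors that set or keep the identity of rods and cones: NRL, NR2E3, CRX, OTX2, RORB, THRB, RXRG and PRDM1. They were chosen by name, as the rows whose assigned symbol equals one of these, and each symbol had 1 row, so that 8 of 19422 gene identifiers were followed. RNA-seq was performed on postmortem tissue of 2 adult rhesus macaques, RM03 and RM04, with both eyes of each animal used. Punches of 2 mm came from 4 locations, namely fovea/macula (here called fovea), perimacula, nasal retina and periphery, and each was separated by microdissection into neural retina and RPE/choroid, the retinal pigment epithelium (RPE) together with the vascular layer under it. This gave 4 eyes in each of 8 groups. The p-values rest on the spread among eyes of only 2 animals, estimated over all libraries of a fit. The location labels say periphery and the dissection notes list a temporal punch, and the authors' abstract names this region temporal peripheral.

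Library totals ranged from 42448903 to 78574055 estimated counts. Flow cell and periphery cannot be told apart, since peripheral libraries ran on 2 lanes of a flow cell of their own and those of the other 3 locations on 5 lanes of 2 shared ones. The tissues carried their defining markers: RPE65, the isomerase of the RPE visual cycle, lay between 52.1 and 218 CPM (counts scaled to a common library size, with TMM factors) in retina and between 480.4 and 8589 CPM in RPE/choroid. SAG, rod arrestin, lay between 1221 and 11949 CPM in retina and between 6.22 and 395 CPM in RPE/choroid. Of the 32 libraries 3 were marked as standing apart, after the values were seen. The perimacular retina of the left eye of RM04 held 15170.2 CPM summed over 9 rod genes against 19490 to 22296 CPM in the other perimaculas, and 4570.5 CPM summed over 7 ganglion cell markers against 2113 to 3110 CPM. The foveal RPE/choroid of the right eye of RM04 held 165 CPM of SAG, against 7.51 to 28.8 CPM in the other foveal RPE/choroids. SAG was higher still in the peripheral RPE/choroids of the right eye of RM03 (395 CPM) and the left eye of RM04 (294 CPM). The other peripheral RPE/choroids held 54.1 and 95.3 CPM, and none of these was marked for its SAG. The peripheral RPE/choroid of the left eye of RM03 held 480.4 CPM of RPE65, against 2586 to 6061 CPM in the other peripheral ones. Where leaving out one of the 3 marked libraries changed a call or moved a value of a member strongly, the value without it is given beside the result.

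During development OTX2, a homeodomain factor, commits retinal precursors to the photoreceptor lineage and switches on CRX, a related homeodomain factor that activates genes of both rods and cones. RORB, an orphan nuclear receptor, acts upstream of NRL, the leucine zipper factor without which rod precursors become cones, and NRL switches on NR2E3, a nuclear receptor that activates rod genes and represses cone genes. In cones, the thyroid hormone receptor gene THRB and its partner RXRG, the gamma retinoid X receptor, control opsin choice, while PRDM1, a zinc finger repressor also known from lymphocytes, holds precursors back from the bipolar fate. OTX2 has a second role in the RPE, where it controls pigment and visual cycle genes.

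The identity of 1 row is uncertain. The row named CRX rests on a single orthology source with no macaque symbol of its own, and the macaque name table gives CRX another identifier, while the other 7 rows have the identifier of that table. Every value given for CRX below is a value of that row. Values are per gene, so that the cone isoform of THRB cannot be told from its other isoforms, and in bulk tissue fewer cells of a type and less RNA per cell cannot be told apart.

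In the retina the rod factors were lower at the fovea than at every other location, RXRG and PRDM1 were higher there than at every other location, CRX was lowest at the fovea, OTX2 was lower at the fovea than at the perimacula and nasal location only, and RORB and THRB stayed near level. By edgeR's quasi-likelihood test with Benjamini-Hochberg adjustment over all genes, 7 of 8 members passed an adjusted p of 0.05 between fovea and perimacula, where 35.2% of all genes tested did. Between fovea and nasal retina 7 of 8 passed, against 52.2% of all genes, and between fovea and periphery 5 of 8, against 67.0%. The median log2 fold change of the 8 members from periphery to fovea was 0.03, and that of all genes tested was -0.06. Among the 3 outer locations 3 of 8 passed between perimacula and periphery (50.3% of all genes), 4 of 8 between nasal retina and periphery (48.7%) and 1 of 8 between perimacula and nasal retina (1.49%). The shares of members that passed were thus above the background between fovea and perimacula and between fovea and nasal retina, and near or below it in the 3 comparisons with the periphery. Between perimacula and nasal retina a single gene makes the share. The 8 genes were chosen with earlier results of these data known, so the shares beside the background are a description only.

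**Figure D1:**
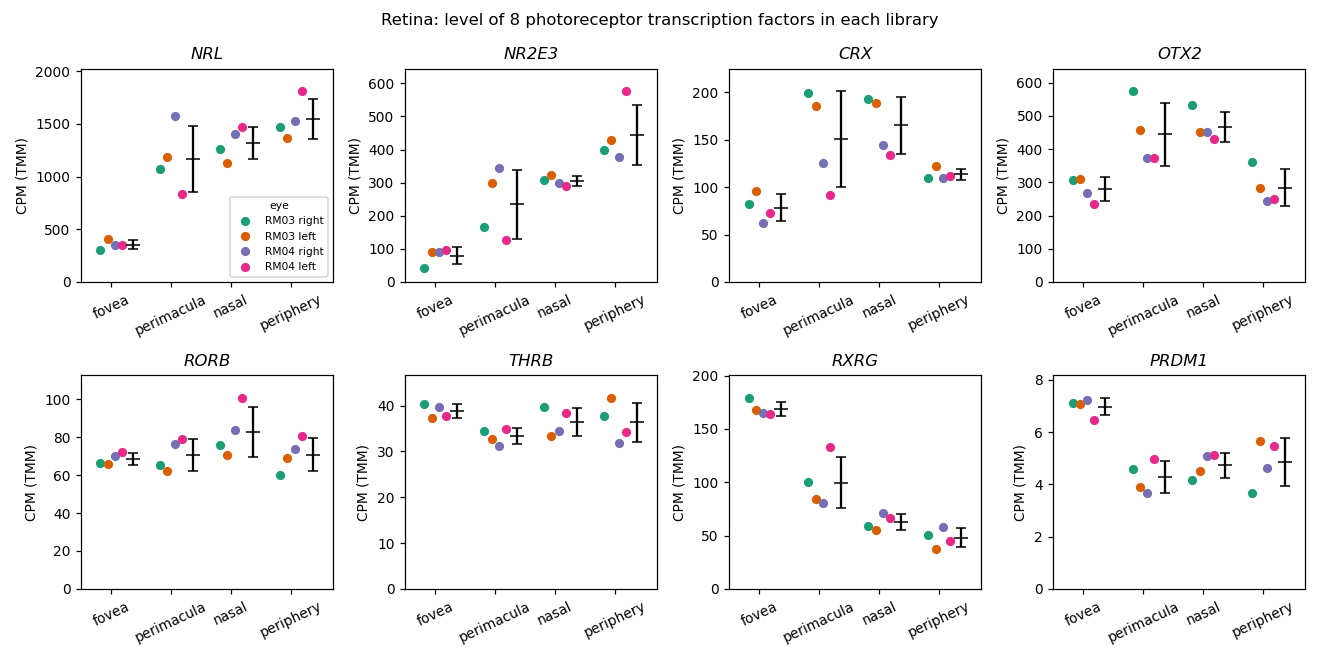
Level of each member in the 16 retina libraries, in CPM (TMM) on a linear axis from 0, by location. Points are eyes, and the black bar is the mean with the SD of 4 eyes. NRL and NR2E3 are lowest and RXRG and PRDM1 highest at the fovea, while RORB and THRB stay near level.

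NRL stood at 303 and 412 CPM in the foveal retinas of the right and left eye of RM03 and at 353 and 354 CPM in those of RM04. In the same order of eyes it stood at 1075, 1185, 1577 and 831 CPM at the perimacula, at 1265, 1128, 1405 and 1476 CPM at the nasal location and at 1472, 1366, 1527 and 1809 CPM at the periphery. No foveal eye reached the lowest eye of any other location, and the 831 CPM come from the perimacular library of RM04 that stood apart. The mean was 356 ± 44.8 CPM for foveal, 1167 ± 311 for perimacular, 1319 ± 154 for nasal and 1544 ± 189 for peripheral retinas (SD, n = 4 each). NRL was 3.15-fold lower at the fovea than at the perimacula (log2 fold change -1.66, SE 0.17, edgeR adjusted p = 5.99e-05), 3.59-fold lower than at the nasal location (-1.84, SE 0.16, 6.30e-07) and 4.18-fold lower than at the periphery (-2.06, SE 0.17, 8.36e-07). Among the outer locations no difference of NRL passed in these fits: perimacula against nasal differed by -0.17 (SE 0.16, adjusted p = 0.65), nasal against periphery by -0.22 (SE 0.16, adjusted p = 0.27) and perimacula against periphery by -0.41 (SE 0.17, adjusted p = 0.059). The second passed when its 2 locations were fitted alone (-0.24, adjusted p = 0.029), and the third without the right eye of RM04 (-0.58, adjusted p = 0.034) or with the nasal libraries in the fit (-0.39, adjusted p = 0.049).

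NR2E3, which NRL switches on, had the same order of levels with a wider spread. It stood at 42.2, 91.0, 89.7 and 95.9 CPM at the fovea, at 167, 298, 345 and 127 CPM at the perimacula, at 308, 323, 298 and 289 CPM at the nasal location and at 397, 427, 377 and 575 CPM at the periphery. The right eye of RM03 lay below the other foveal eyes, and the perimacular eyes spanned a range from just above the fovea to above the nasal eyes. NR2E3 was 2.85-fold lower at the fovea than at the perimacula (log2 fold change -1.51, SE 0.32, edgeR adjusted p = 0.0035), 3.76-fold lower than at the nasal location (-1.91, SE 0.30, 8.38e-05) and 5.42-fold lower than at the periphery (-2.44, SE 0.33, 3.65e-05). NR2E3 also passed between perimacula and periphery, at -0.93 (SE 0.31, adjusted p = 0.027), and that call was lost without the perimacular library that stood apart (-0.69, adjusted p = 0.051), without the right eye of RM03 (-0.81, adjusted p = 0.079) and without the left eye of RM04 (-0.59, adjusted p = 0.16). Between nasal location and periphery it did not pass in the main fit, but did with these 2 locations fitted alone (-0.55, edgeR adjusted p = 0.0069).

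CRX and OTX2, the homeodomain pair that acts in rods and cones alike, had their highest means at the perimacula and nasal location. CRX stood at 82.6, 95.7, 61.9 and 73.2 CPM at the fovea, at 199, 185, 125 and 92.0 CPM at the perimacula, at 193, 189, 145 and 134 CPM at the nasal location and at 109.8, 122, 110.1 and 112 CPM at the periphery. The foveal eyes lay below all nasal and peripheral eyes, while the lowest perimacular eye, again the left eye of RM04, fell within the foveal range. CRX was 1.81-fold lower at the fovea than at the perimacula (log2 fold change -0.86, SE 0.15, edgeR adjusted p = 0.0013), 2.05-fold lower than at the nasal location (-1.03, SE 0.14, 1.75e-05) and 1.42-fold lower than at the periphery (-0.51, SE 0.15, 0.0098). The last of these was lost without the right eye of RM04 (-0.41, adjusted p = 0.098) and without the monkey covariate (adjusted p = 0.07). CRX was 1.43-fold higher at the nasal location than at the periphery (0.52, SE 0.13, adjusted p = 0.00525). Perimacula and periphery differed by 0.35 (SE 0.15, adjusted p = 0.074), and by 0.49 (adjusted p = 0.0073) without the perimacular library that stood apart.

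OTX2 stood at 306, 311, 268 and 235 CPM at the fovea, at 574, 457, 375 and 374 CPM at the perimacula, at 533, 451, 450.1 and 430.0 CPM at the nasal location and at 362, 283, 243 and 249 CPM at the periphery. The foveal and peripheral eyes overlapped, and both groups lay below every perimacular and nasal eye. OTX2 was 1.52-fold lower at the fovea than at the perimacula (log2 fold change -0.60, SE 0.10, edgeR adjusted p = 0.00076) and 1.63-fold lower than at the nasal location (-0.70, SE 0.09, 2.15e-05). It was 1.56-fold higher at the perimacula than at the periphery (0.64, SE 0.10, 0.00022) and 1.66-fold higher at the nasal location than at the periphery (0.73, SE 0.09, 2.29e-05). Fovea and periphery differed by 0.04 (SE 0.10, adjusted p = 0.75). Pigment epithelium markers were also detected in the retina libraries, and OTX2 is expressed in the RPE too. The 11 markers, among them MITF, a factor also present outside the RPE, summed to between 207 and 291 CPM in the foveal retinas. The sums ran from 187 to 302 CPM at the perimacula, from 288 to 499 CPM at the nasal location and from 672 to 1377 CPM at the periphery. In RPE/choroid they ran from 11508 to 27464 CPM. The part of RPE RNA in the retinal OTX2 level was not tested. Both eyes of RM03 lay above both eyes of RM04 in OTX2 at 4 of 4 retinal locations and in CRX at 3 of 4, and the reverse held for RORB at 4 of 4.

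RORB, the nuclear receptor upstream of NRL, varied little with location. It stood at 66.5, 65.8, 70.3 and 72.4 CPM at the fovea, at 65.3, 62.1, 76.6 and 79.0 CPM at the perimacula, at 75.7, 70.6, 83.9 and 101 CPM at the nasal location and at 59.8, 69.0, 74.0 and 80.5 CPM at the periphery. The ranges of all 4 locations overlapped. RORB was 1.16-fold lower at the fovea than at the nasal location (log2 fold change -0.22, SE 0.07, edgeR adjusted p = 0.016) and 1.17-fold higher at the nasal location than at the periphery (0.23, SE 0.07, 0.013), but without the monkey covariate the adjusted p was 0.13 for both. Both calls were also lost without the right eye of RM03 (adjusted p = 0.12 and 0.25) and without the left eye of RM04 (adjusted p = 0.16 and 0.075), and the first without the right eye of RM04 (adjusted p = 0.062). Fovea and periphery differed by 0.01 (SE 0.07, adjusted p = 0.88).

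The cone receptors parted. RXRG stood at 179, 168, 165 and 164 CPM at the fovea, at 100.3, 84.4, 80.4 and 133 CPM at the perimacula, at 58.5, 55.3, 71.3 and 66.2 CPM at the nasal location and at 51.0, 37.5, 58.4 and 44.9 CPM at the periphery. The foveal eyes lay above all others, the perimacular eyes above all nasal and peripheral eyes, and the nasal and peripheral ranges overlapped. RXRG was 1.77-fold higher at the fovea than at the perimacula (log2 fold change 0.82, SE 0.16, edgeR adjusted p = 0.0023), 2.78-fold higher than at the nasal location (1.48, SE 0.15, 1.49e-06) and 3.67-fold higher than at the periphery (1.88, SE 0.16, 1.22e-06). It was 2.08-fold higher at the perimacula than at the periphery (1.06, SE 0.16, 0.00024) and 1.32-fold higher at the nasal location than at the periphery (0.40, SE 0.14, 0.034), and the latter was lost without the right eye of RM03, its left eye or the left eye of RM04 (adjusted p = 0.085, 0.099 and 0.10). It was also the only member that passed between perimacula and nasal retina (0.66, SE 0.14, adjusted p = 0.036). With the eye as a replicate block that call was lost (0.66, adjusted p = 0.052), as it was without the perimacular library that stood apart (0.51, adjusted p = 0.13), and leaving out any single eye also ended it.

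THRB stood at 40.4, 37.2, 39.8 and 37.7 CPM at the fovea, at 34.5, 32.7, 31.3 and 35 CPM at the perimacula, at 39.8, 33.3, 34.6 and 38.3 CPM at the nasal location and at 37.9, 41.6, 31.9 and 34.3 CPM at the periphery. Only the foveal and perimacular eyes did not overlap. THRB was 1.21-fold higher at the fovea than at the perimacula (log2 fold change 0.27, SE 0.08, edgeR adjusted p = 0.026), a call lost without the right eye of RM03 (0.25, adjusted p = 0.14) or of RM04 (0.22, adjusted p = 0.10). The differences of fovea from nasal location, 0.13 (SE 0.07), and from periphery, 0.15 (SE 0.08), did not pass (adjusted p = 0.17 and 0.14), while the latter did without the left eye of RM03 (0.24, adjusted p = 0.026) and by DESeq2 (0.18, adjusted p = 0.047).

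PRDM1, the repressor of the bipolar fate, was the member with the lowest counts in retina. It stood at 7.11, 7.06, 7.21 and 6.48 CPM at the fovea, at 4.58, 3.89, 3.65 and 4.98 CPM at the perimacula, at 4.16, 4.52, 5.08 and 5.13 CPM at the nasal location and at 3.65, 5.66, 4.61 and 5.47 CPM at the periphery. Every foveal eye lay above every other eye, and the 3 outer locations overlapped. PRDM1 was 1.69-fold higher at the fovea than at the perimacula (log2 fold change 0.76, SE 0.16, edgeR adjusted p = 0.0040), 1.52-fold higher than at the nasal location (0.60, SE 0.14, 0.0019) and 1.49-fold higher than at the periphery (0.57, SE 0.16, 0.0078).

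**Figure D2:**
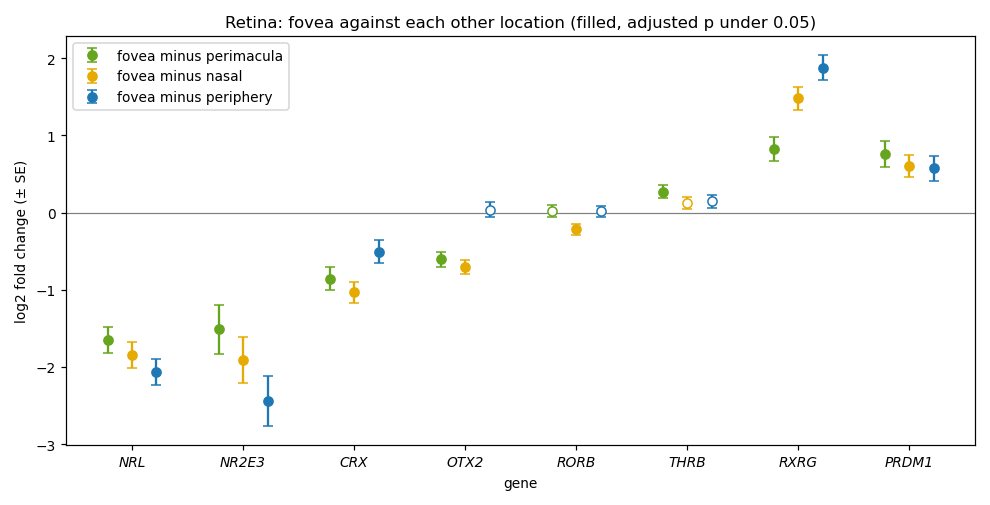
Log2 fold change of each member in retina, fovea minus perimacula, nasal location and periphery, with its SE (edgeR, 4 eyes a group). Filled points passed an adjusted p of 0.05. NRL and NR2E3 lie below 0 and RXRG and PRDM1 above 0 in all 3 comparisons, and OTX2 lies below 0 against perimacula and nasal location but at 0.04 against the periphery.

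The opposite gradients of NRL and RXRG can be put in 1 number per library, their ratio of CPM. The size of this ratio depends on the lengths of both genes, so only its change with location is read. In retina its median was 2.14 at the fovea (range 1.69 to 2.46), 12.4 at the perimacula (6.24 to 19.6), 21 at the nasal location (19.7 to 22.3) and 32.7 at the periphery (26.1 to 40.3). The ranges of the 4 locations did not overlap, and the 6.24 is the perimacular library of RM04 that stood apart. The ratio of NR2E3 to NRL moved far less, with medians of 0.237, 0.187, 0.228 and 0.291 in the same order of locations.

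The members can be set beside listed genes of the same retina cells. Of all genes tested 67.0% passed between fovea and periphery, 35.2% between fovea and perimacula and 52.2% between fovea and nasal retina. Of 14 rod phototransduction and outer segment genes listed 9 were analysed, and 9 of 9 were lower at the fovea than at the periphery, with a median log2 fold change of -2.19, near the -2.06 of NRL and the -2.44 of NR2E3. The largest falls towards the fovea were those of SAG, at -2.99 (SE 0.13, edgeR adjusted p = 3.48e-08), and of GNGT1, the rod transducin gamma subunit, at -2.98 (SE 0.12, 1.69e-08). Of 12 cone phototransduction genes listed 8 were analysed, and 7 were higher at the fovea while ARR3, cone arrestin, did not pass (-0.05, SE 0.09, adjusted p = 0.66), with a median of 1.08, and RXRG at 1.88 lay between SLC24A2, the cone calcium exchanger, at 2.34 (SE 0.16, 1.96e-07) and CNGA3, a subunit of the cone channel, at 1.52 (SE 0.10, 2.08e-07). THRB and OTX2, at 0.15 and 0.04, lay below all 7 of the cone genes that were higher.

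Of 17 other regulators known in photoreceptors, 9 were higher at the fovea, 6 were lower and 2 did not pass, with a median log2 fold change of 0.32. ONECUT1 and ONECUT2, homeodomain factors of early cone and horizontal cell precursors, were higher at the fovea by 2.04 (SE 0.31, edgeR adjusted p = 9.88e-05) and 1.98 (SE 0.36, 0.00038). SAMD11, a repressor complex subunit of rods, and ESRRB, an orphan nuclear receptor of rods, were lower by 2.23 and 1.85 on the log2 scale (log2 fold change -2.23, SE 0.18, 5.71e-07, and -1.85, SE 0.18, 2.64e-06). Against the perimacula and the nasal retina the 9 rod genes were lower (medians -1.67 and -1.86) and the 8 cone genes higher (medians 0.72 and 0.81) at the fovea, and of the 17 regulators 3 were higher and 6 lower, and 3 higher and 8 lower. THRA and RXRB, paralogs of THRB and RXRG, were listed there too and are counted among the 9.

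Listed genes of other cell types are given for the same comparison of fovea and periphery, in which 67.0% of all genes passed. The share of bipolar factors that passed was near this and that of choroid markers below it. Of 8 bipolar cell transcription factors 5 were higher at the fovea (median 0.70), led by BHLHE22 at 1.47 (SE 0.25) and IRX6 at 1.19 (SE 0.14). Of 7 ganglion cell markers 7 were higher (median 4.12), led by RBPMS at 4.73 (SE 0.34) and POU4F2 at 4.5 (SE 0.37). Of 4 glia markers 4 were lower (median -2.05), with RLBP1 at -3.09 (SE 0.19) and VIM at -2.57 (SE 0.14). RLBP1 and VIM were also higher in RPE/choroid than in retina at the fovea (retina minus RPE/choroid -3.73, SE 0.43, and -3.99, SE 0.14). Of 11 pigment epithelium markers 9 were lower and 1 was higher (median -2.70), with SLC45A2 at -3.79 (SE 0.35), TTR at -3.23 (SE 0.28) and MITF, a factor also present outside the RPE, at 1.94 (SE 0.18). Of 8 choroid markers 1 was higher, MYH11 at 1.35 (SE 0.22), and 2 were lower, VWF at -1.96 (SE 0.14) and ACTA2 at -1.04 (SE 0.22). Since CPM are shares of a library, the part of these cell types in the members' differences was not tested.

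**Figure D3:**
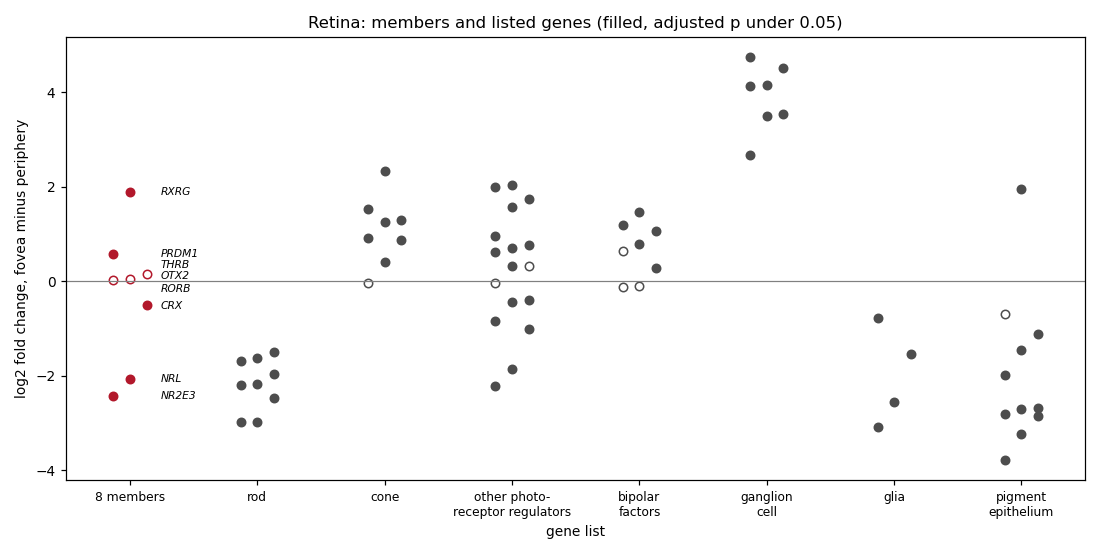
Log2 fold change in retina, fovea minus periphery, of the 8 members (red, named) and of the genes of 7 lists (grey). Filled points passed an adjusted p of 0.05. NRL and NR2E3 lie among the 9 rod genes, RXRG among the cone genes that were higher at the fovea, and OTX2, RORB and THRB near 0.

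The gene whose retinal profile came nearest to each member was named by the root mean square difference of log2 CPM over the 16 retina libraries, after centring. Nearest to NRL were ANO2, a chloride channel, at 0.115, GLB1L2 at 0.138 and REXO5 at 0.178, with NRL itself varying by 0.863. Nearest to NR2E3 were TTYH1 at 0.254, SAMD11 at 0.276 and SPTBN5 at 0.298, against its own 1.03. Nearest to RXRG were FLT3 at 0.0950, FAM155A at 0.132 and APBA1 at 0.133, against its own 0.723. These 3 members had close partners for their size of variation.

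For the other members the nearest gene left a larger share of the variation. CRX varied by 0.496, and its nearest were EPAS1 at 0.206, DYRK2 at 0.22 and ITGB5 at 0.221. OTX2 varied by 0.399, and its nearest were NFATC3 at 0.124, KMT2D at 0.152 and KIF14 at 0.168. RORB varied by 0.178, with TAOK1 at 0.0905, MACF1 at 0.105 and ERC2 at 0.106. THRB varied by 0.125, the least of the 8, with TEX2 at 0.0630, TBPL1 at 0.08 and KPNB1 at 0.0826. PRDM1 varied by 0.317, with RAB3C at 0.141, NLN at 0.160 and PHF11 at 0.165. Between members, NRL and NR2E3 lay 0.349 apart and CRX and OTX2 0.289, both below the own variation of either gene. The distance of 0.224 between RORB and THRB was above the own variation of both, whose profiles were near flat. The farthest pair was NR2E3 and RXRG at 1.72.

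In RPE/choroid the members split by how much of the retinal level was present. In the fits of all 32 libraries, 7 of 8 members passed between retina and RPE/choroid at the fovea, where 75.5% of all genes passed, while 8 of 8 passed at each other location, against 76.7% (perimacula), 76.2% (nasal) and 75.7% (periphery) of all genes. Except for PRDM1, the members that passed were higher in retina. The largest differences were those of NRL and NR2E3. NRL was 30.5-fold higher in retina at the fovea (log2 fold change 4.93, SE 0.73, edgeR adjusted p = 9.84e-07), 233-fold at the perimacula (7.86, SE 0.83, 2.55e-09), 195-fold at the nasal location (7.61, SE 0.82, 3.94e-09) and 58.1-fold at the periphery (5.86, SE 0.75, 1.01e-07). Without the foveal RPE/choroid library of RM04 that stood apart the foveal difference of NRL was 6.51 (edgeR adjusted p = 2.32e-09). Those of NR2E3 were 4.92 at the fovea (6.80 without that library), 5.35 at the periphery, 7.67 at the nasal location and 7.83 at the perimacula. Those of RXRG ran from 2.27 at the periphery to 4.66 at the fovea, and the former was 3.33 without the peripheral RPE/choroid of the left eye of RM03.

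The RPE/choroid of each eye was set against the retina of the same eye and location. NRL reached a median of 0.726% of the retinal CPM over 16 pairs (range 0.172% to 11%) and NR2E3 0.878% (0.0611% to 10.2%), while the median of the rod list reached 1.00% (0.248% to 12%) and that of the cone list 1.80% (0.955% to 5.42%). RXRG reached 6.63% (2.42% to 64.4%) and CRX 8.40% (1.04% to 28.2%). THRB reached 22.1% (5.67% to 34.6%), RORB 35.5% (25% to 46.9%) and OTX2 52.6% (8.64% to 127%), and PRDM1 exceeded the retina at 187% (92.0% to 267%). NRL and NR2E3 were thus present in RPE/choroid at about the share of the rod phototransduction genes, and the medians of the other 6 members were above those of both photoreceptor lists. The median of the other photoreceptor regulators was 18.8% (13.5% to 28.7%), between those of CRX and THRB.

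**Figure D4:**
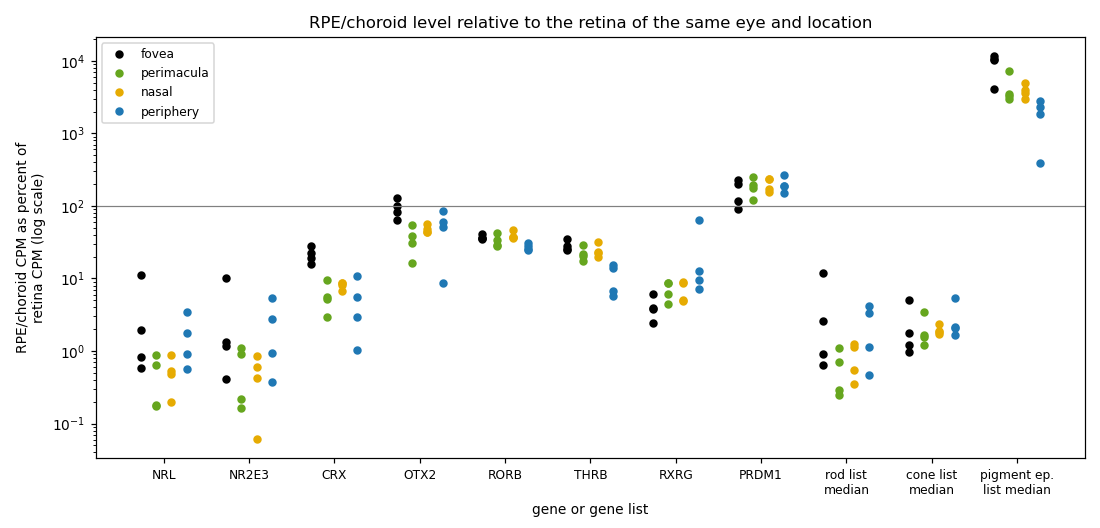
RPE/choroid CPM as a percent of the retina CPM of the same eye and location, on a log axis, for each member and for the medians of the rod, cone and pigment epithelium lists. Points are the 4 eyes of each location and the line marks 100%. NRL and NR2E3 lie with the rod list near 1%, OTX2 around 52.6% and PRDM1 mostly above 100%.

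OTX2, the member with a known role in the RPE, stood in RPE/choroid at 308, 199, 222 and 299 CPM at the fovea, at 94.6, 178, 116 and 204 CPM at the perimacula, at 236, 251, 219 and 186 CPM at the nasal location and at 220.4, 24.4, 123 and 212 CPM at the periphery. The foveal levels overlapped those of the foveal retina, and the 24.4 CPM come from the left eye of RM03, whose RPE65 was also the lowest of the peripheral RPE/choroids and whose BEST1, an RPE channel gene that OTX2 is known to activate, was 172 CPM against 498 to 679 CPM. OTX2 differed between retina and RPE/choroid by 0.12 at the fovea (SE 0.36, edgeR adjusted p = 0.78), and was 2.98-fold higher in retina at the perimacula (1.58, SE 0.36, 0.00036), 2.09-fold at the nasal location (1.06, SE 0.36, 0.0096) and 1.94-fold at the periphery (0.95, SE 0.36, 0.019). Without the right eye of RM04 the last 2 were lost (1.08, adjusted p = 0.059, and 0.98, adjusted p = 0.085). Without the peripheral RPE/choroid of the left eye of RM03 the peripheral difference between the tissues was 0.58 (edgeR adjusted p = 0.019). By edgeR no comparison of locations within RPE/choroid passed for OTX2, and fovea and periphery differed by 0.83 (SE 0.52, adjusted p = 0.22), or by 0.46 (adjusted p = 0.25) without that library.

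PRDM1 was the only member higher in RPE/choroid. It stood at 6.53, 8.13, 14.3 and 14.7 CPM at the fovea, at 5.57, 7.53, 9.07 and 8.84 CPM at the perimacula, at 7.05, 6.98, 12.1 and 12 CPM at the nasal location and at 6.83, 8.57, 12.3 and 10.2 CPM at the periphery. At 4 of 4 locations both eyes of RM04 lay above both eyes of RM03, which with 2 animals cannot be tested. PRDM1 was 1.5-fold higher in RPE/choroid than in retina at the fovea (retina minus RPE/choroid -0.59, SE 0.19, edgeR adjusted p = 0.0066), 1.78-fold at the perimacula (-0.83, SE 0.19, 0.00029), 1.98-fold at the nasal location (-0.98, SE 0.19, 3.93e-05) and 1.92-fold at the periphery (-0.94, SE 0.19, 6.40e-05). The foveal call was lost without the right eye of RM04 (-0.35, adjusted p = 0.16) or its left eye (-0.30, adjusted p = 0.27).

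**Figure D5:**
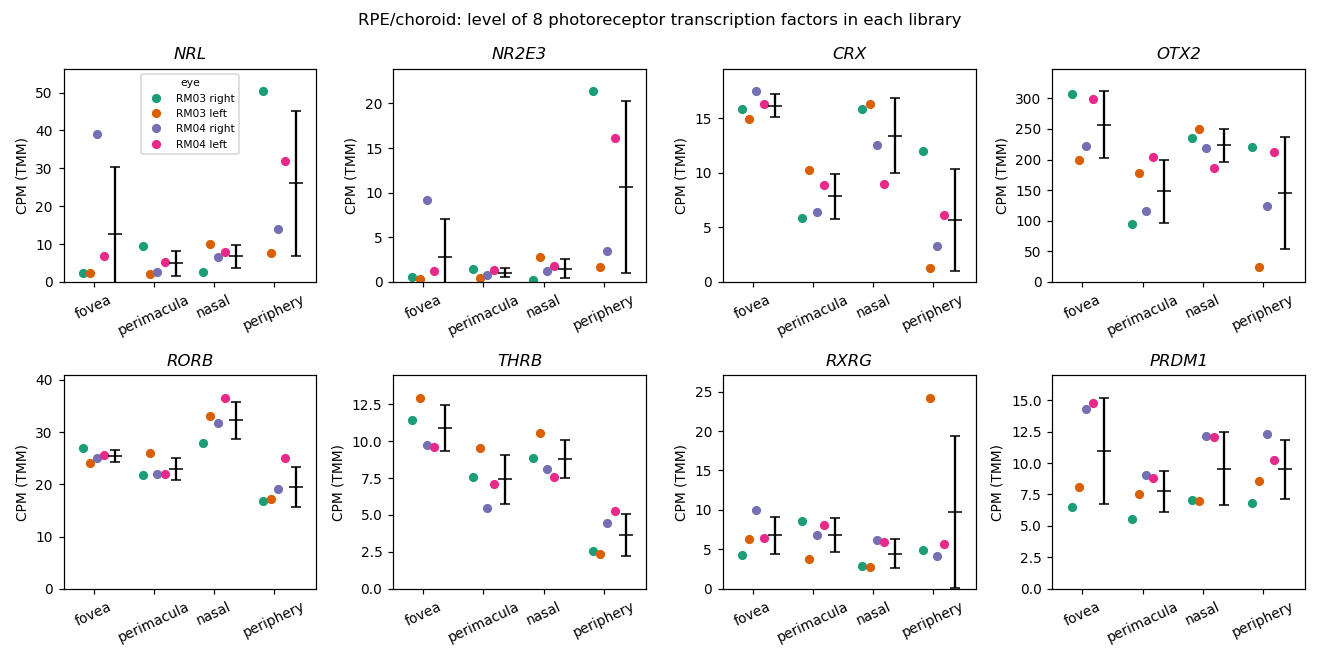
Level of each member in the 16 RPE/choroid libraries, in CPM (TMM) on a linear axis from 0, by location. Points are eyes, and the black bar is the mean with the SD of 4 eyes, cut off where it runs below 0. THRB is lowest at the periphery, and single eyes at the fovea (NRL, NR2E3) and periphery (OTX2, RXRG) lie far from the others.

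Across locations of RPE/choroid, 3 of 8 members passed between fovea and periphery (44.1% of all genes), 2 of 8 between perimacula and periphery (34.9%), 4 of 8 between nasal location and periphery (44.6%) and 1 of 8 between perimacula and nasal location (3.07%). None of the 8 passed between fovea and perimacula (0.0447%) or between fovea and nasal location (0.361%) by edgeR, where 1 and 1 had an unadjusted p under 0.05, and by DESeq2 0 passed in either. THRB was the member that passed in all 3 comparisons with the periphery. It stood at 11.4, 12.9, 9.72 and 9.57 CPM at the fovea, at 7.58, 9.52, 5.46 and 7.07 CPM at the perimacula, at 8.84, 10.6, 8.09 and 7.59 CPM at the nasal location and at 2.54, 2.36, 4.49 and 5.26 CPM at the periphery. Every peripheral eye lay below every eye of the other locations. THRB was 2.98-fold higher at the fovea (log2 fold change 1.57, SE 0.29, edgeR adjusted p = 0.0012), 2.02-fold higher at the perimacula (1.01, SE 0.28, 0.017) and 2.37-fold higher at the nasal location (1.24, SE 0.25, 0.0012) than at the periphery. The middle of these was lost without the right eye of RM03 (0.83, adjusted p = 0.12) or its left eye (0.70, adjusted p = 0.089).

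Choroid markers moved in the same direction: 6 of 8 were higher at the fovea than at the periphery of RPE/choroid, where 44.1% of all genes passed in either direction. The 6 included MYH11 at 3.39 (SE 0.50) and ACTA2 at 2.64 (SE 0.35), genes of smooth muscle, and PECAM1, a gene of endothelium, at 1.55 (SE 0.14). PTPRC, a gene of leukocytes, was lower (-0.66, SE 0.16). The 8 markers summed to between 6299.6 and 8935 CPM at the fovea and between 1422 and 2382 CPM at the periphery, without overlap, and their part in the changes of THRB, RORB and CRX was not tested.

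RORB and CRX were also lower at the periphery of RPE/choroid than at its fovea and nasal location. RORB stood at 26.9, 24.1, 25.1 and 25.6 CPM at the fovea, at 21.8, 26, 21.9 and 22.1 CPM at the perimacula, at 27.9, 33.1, 31.7 and 36.5 CPM at the nasal location and at 16.8, 17.3, 19 and 25.1 CPM at the periphery. It was highest at the nasal location, where all eyes lay above those of every other location. The nasal level was 1.65-fold above the periphery (log2 fold change 0.72, SE 0.11, edgeR adjusted p = 0.00018). The perimacula was 0.50 below the nasal location on the log2 scale (log2 fold change -0.50, SE 0.11, 0.035), a call that leaving out any eye ended, and the fovea was 0.37 above the periphery (SE 0.13, 0.034), a call lost without the peripheral library of RM03 that stood apart (0.32, adjusted p = 0.080), without the foveal library of RM04 that stood apart (0.39, adjusted p = 0.054), and without the right or left eye of RM03 or the right eye of RM04 (adjusted p = 0.19, 0.081 and 0.11).

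CRX stood at 15.9, 14.9, 17.4 and 16.3 CPM at the fovea of RPE/choroid, at 5.82, 10.2, 6.42 and 8.84 CPM at the perimacula, at 15.8, 16.3, 12.6 and 8.93 CPM at the nasal location and at 12, 1.27, 3.25 and 6.12 CPM at the periphery. The foveal eyes lay close together and above all perimacular and peripheral eyes. Fovea and perimacula did not pass in the main fit, but did with these 2 locations fitted alone (log2 fold change 1.05, edgeR adjusted p = 0.033). CRX was 2.85-fold higher at the fovea than at the periphery (log2 fold change 1.51, SE 0.52, edgeR adjusted p = 0.036) and 2.34-fold higher at the nasal location than at the periphery (1.23, SE 0.46, 0.044). Without the peripheral library of the left eye of RM03 these were 1.19 (adjusted p = 0.021) and 0.88 (adjusted p = 0.038), and without the foveal library of the right eye of RM04 the first was lost (1.44, adjusted p = 0.072). The first was also lost without either eye of RM04 at all locations (adjusted p = 0.17 and 0.13 for right and left), and the second without the left eye of RM03 or either eye of RM04 (adjusted p = 0.094, 0.21 and 0.096). Both were lost with the 2 compared locations fitted alone (1.51, edgeR adjusted p = 0.080, and 1.20, adjusted p = 0.15). Within RPE/choroid the ratio of CRX to OTX2 had medians between 0.0404 and 0.0648 over the locations, against 0.289 to 0.440 in retina.

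NRL, NR2E3 and RXRG were scattered in RPE/choroid. NRL stood at 2.47, 2.43, 38.9 and 6.87 CPM at the fovea, at 9.51, 2.14, 2.71 and 5.29 CPM at the perimacula, at 2.49, 9.89, 6.71 and 7.84 CPM at the nasal location and at 50.3, 7.77, 13.9 and 32 CPM at the periphery. The libraries with the highest NRL were those with the highest SAG: the 50.3 CPM went with 395 CPM of SAG, the 38.9 CPM with 165 CPM and the 32 CPM with 294 CPM, and the part of retinal RNA in these levels was not tested. Between fovea and periphery NRL differed by -1.35 (SE 1.00, edgeR adjusted p = 0.30), and without the foveal library of RM04 by -2.76 (adjusted p = 0.021). NR2E3 differed by -2.40 (SE 1.11, adjusted p = 0.10) and, without that library, by -3.95 (adjusted p = 0.0099). Leaving it out took high SAG from the foveal side only, since the peripheral libraries with 395 and 294 CPM of SAG stayed in the fit. Of the 9 rod genes 0 passed between fovea and periphery of RPE/choroid by edgeR, 1 had an unadjusted p under 0.05 and 3 passed by DESeq2. Of the 8 cone genes 0 passed by edgeR, 1 had an unadjusted p under 0.05 and 0 passed by DESeq2. Of 14 other photoreceptor regulators tested 6 were higher and 1, RXRB, was lower at the fovea by edgeR. Of all genes 44.1% passed by edgeR in this comparison.

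NR2E3 stood at 0.501, 0.379, 9.17 and 1.26 CPM at the fovea of RPE/choroid, at 1.5, 0.489, 0.757 and 1.38 CPM at the perimacula, at 0.188, 2.76, 1.27 and 1.74 CPM at the nasal location and at 21.3, 1.62, 3.50 and 16.1 CPM at the periphery. The lowest of these rests on 8 estimated counts. The 21.3 and 16.1 CPM come from the peripheral libraries with 395 and 294 CPM of SAG, and the part of retinal RNA in them was not tested. NR2E3 was 11-fold lower at the perimacula than at the periphery (log2 fold change -3.46, SE 1.09, edgeR adjusted p = 0.030) and 7.40-fold lower at the nasal location (-2.89, SE 1.05, 0.038). The first was lost without the right eye of RM03 (-2.68, adjusted p = 0.073) or the left eye of RM04 (adjusted p = 0.13), and the second was lost with the eye as a replicate block (-2.52, adjusted p = 0.13) and without the right eye of RM03 (-1.30, adjusted p = 0.37) or the left eye of RM04 (-2.79, adjusted p = 0.15). Of the 9 rod genes 4 passed by edgeR between perimacula and periphery of RPE/choroid, where 34.9% of all genes did. Between nasal location and periphery 2 of the 9 passed, against 44.6% of all genes. By DESeq2 7 and 4 of the rod genes passed.

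RXRG stood at 4.33, 6.35, 9.97 and 6.43 CPM at the fovea of RPE/choroid, at 8.56, 3.78, 6.88 and 8.09 CPM at the perimacula, at 2.89, 2.80, 6.24 and 5.90 CPM at the nasal location and at 4.88, 24.1, 4.20 and 5.64 CPM at the periphery. The 24.1 CPM come from the peripheral library of RM03 that also had the lowest OTX2, CRX and RPE65. Its 8 cone genes summed to 66.4 CPM, the lowest of the peripheral RPE/choroids. CNGB3, a gene of the list, was higher in RPE/choroid than in retina at the fovea (retina minus RPE/choroid -1.96, SE 0.37). The mean log2 CPM of the list was 1.63 in this library, against 2.24 to 3.56 in the other peripheral RPE/choroids. The part of cone RNA in its RXRG level was not tested. By edgeR no location comparison of RXRG passed in RPE/choroid, while by DESeq2 the nasal location was lower than the periphery (-1.18, adjusted p = 0.038). Without that library edgeR put this difference at -0.15 (adjusted p = 0.70). Fovea and periphery differed by -0.45 (SE 0.57, edgeR adjusted p = 0.55) with that library and by 0.47 (adjusted p = 0.23) without it.

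Whether a location change differed between the tissues was tested as an interaction, the retinal log2 fold change minus that of RPE/choroid. Between fovea and periphery 4 of 8 members passed, where 43.5% of all genes did. RXRG differed by 2.39 (SE 0.56, edgeR adjusted p = 0.0012), CRX by -2.10 (SE 0.48, 0.00088), THRB by -1.47 (SE 0.26, 5.62e-05) and RORB by -0.43 (SE 0.14, 0.016). Without the peripheral RPE/choroid library of RM03 these became 1.35, -1.77, -1.28 and -0.40, each past the adjusted threshold. The call of RORB was lost without the right or left eye of RM03 or the right eye of RM04 (adjusted p = 0.090, 0.082 and 0.12), and that of CRX without the right eye of RM04 (-1.69, adjusted p = 0.051). CRX thus changed in opposite directions in the tissues, lower at the fovea than at the periphery in retina and higher in RPE/choroid, while THRB, with 0.15 in retina, and RORB, with 0.01, passed in RPE/choroid and not in retina by edgeR.

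Between fovea and perimacula 2 of 8 members passed the interaction (15.2% of all genes), NRL at -2.93 (SE 0.91, edgeR adjusted p = 0.029) and CRX at -1.98 (SE 0.48, 0.0059). Between fovea and nasal location 2 of 8 passed (23.5%), NRL at -2.67 (SE 0.90, 0.031) and CRX at -1.38 (SE 0.48, 0.036). Without the foveal RPE/choroid library of RM04 with high SAG the values of NRL were -1.37 (adjusted p = 0.22) and -1.09 (adjusted p = 0.29), and those of CRX were -1.87 (adjusted p = 0.015) and -1.28 (adjusted p = 0.070). Without the perimacular retina of the left eye of RM04, NR2E3 (-3.13, edgeR adjusted p = 0.044) and OTX2 (-1.52, 0.049) also passed between fovea and perimacula. With all libraries both passed there by DESeq2 (-2.87, adjusted p = 0.043, and -1.45, adjusted p = 0.026). With the eye as a replicate block the nasal value of NRL was -2.50 (adjusted p = 0.057). Leaving out single eyes ended the nasal calls of both genes without the right eye of RM03 or either eye of RM04, with an adjusted p between 0.058 and 0.52 for NRL and between 0.067 and 0.24 for CRX. It ended the perimacular call of NRL without either eye of RM04 (adjusted p = 0.60 and 0.13 for right and left) and that of CRX without its right eye (adjusted p = 0.12).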

How the data were processed

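Paired-end, poly-A-selected libraries were quantified by the authors with Salmon 0.13 against Mmul_8.0.1 and imported with tximport as length-scaled TPM. The deposited column is headed TPM but holds estimated counts per gene, since lane totals differ from 7933344 to 39445657. The authors took each gene symbol from the orthology prediction with the most sources. Lanes of a library were summed here and rounded, which gave 42448903 to 78574055 estimated counts in each of 32 libraries. This limits the precision for NR2E3 in RPE/choroid, where a library held as few as 8 estimated counts. The 10 repeated entries were left out.

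CPM were computed with TMM factors. The quasi-likelihood test of edgeR 4.0.16 (R 4.3.3, limma 3.58.1, filterByExpr at a minimum count of 10) compared groups, with monkey as covariate. Its p-values were adjusted by Benjamini-Hochberg across every gene in the fit, and 0.05 was the threshold. Fovea, perimacula and periphery of a tissue were fitted together, nasal contrasts came from 4 locations, and tissue contrasts from all 32 libraries. The standard error of a log2 fold change is its size divided by the square root of F. The scripts were tested on simulated data. Replicate numbers name the eye of an animal in the labels, so they pair libraries by design. The eye as a replicate block, DESeq2 1.42.0, RLE factors, other low count filters, no covariate, other sets of locations and leaving out each eye in turn were alternatives, and leaving out 3 single libraries was added after the values were seen. Python 3.11.15, numpy 2.4.6, pandas 2.3.3 and matplotlib 3.10.9 did the rest.

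The 8 genes and the marker lists were chosen with earlier results of these data known. Genes named beside the 8 members are, for each list, up to 2 with the largest rise and 2 with the largest fall among those called between fovea and periphery in retina, the 3 genes closest to each member in profile, and RPE65, BEST1, PDE6B, SAG and PECAM1 as tissue checks. ARR3, CNGB3, THRA, RXRB and PTPRC were named outside this rule, after their values were seen. The profile distance is the root mean square difference of log2 CPM (prior count 2) after centring each gene on its mean over the 16 retina libraries, among 12350 genes with a mean of at least 1 CPM. Coordinates, gene lengths and sequences of the build were not used here, so levels are not compared between genes.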

Additional observations from a re-analysis of the deposited data

Results flagged for a closer look

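In 64 groups of 4 eyes (8 genes, 2 tissues, 4 locations) the highest or lowest eye was compared with the others, a check that chance sets off in about 1 in 20 groups, and 3 groups held an eye far from the rest. NR2E3 in the foveal retina of the right eye of RM03 was 42.2 CPM, against 89.7 to 95.9 CPM in the other eyes. RORB in the perimacular RPE/choroid of the left eye of RM03 was 26 CPM, against 21.8 to 22.1 CPM. RXRG in the peripheral RPE/choroid of the same eye was 24.1 CPM, against 4.20 to 5.64 CPM.

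In 8 of 24 tests the change with location differed between the tissues by the interaction test of edgeR, namely 4 of 8 members between fovea and periphery (43.5% of all genes), 2 of 8 between fovea and perimacula (15.2%) and 2 of 8 between fovea and nasal location (23.5%). From periphery to fovea the log2 fold change in retina minus that in RPE/choroid was -2.10 for CRX, -0.43 for RORB, -1.47 for THRB and 2.39 for RXRG. From perimacula to fovea it was -2.93 for NRL and -1.98 for CRX, and from nasal location to fovea -2.67 for NRL and -1.38 for CRX.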

How the results depend on the processing

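Over 1790 combinations of a member, a comparison and an alternative setting, 1675 kept their side of the threshold, 82 lost the call and 33 gained it. In 0 did the sign change where either setting passed. Differences that passed in neither setting count as kept whatever their sign, and some of these changed sign, such as RXRG between fovea and periphery of RPE/choroid (-0.99 to 0.47). In retina the members called were 3 between perimacula and periphery and 5 with the nasal libraries in the fit. Between perimacula and nasal location 1 became 0 with the eye as a replicate block, without the monkey covariate, with the 2 locations alone, without the left perimacula of RM04 and without any eye (0 to 0). Between nasal location and periphery 4 became 2 without the covariate and 2 to 4 without single eyes.

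In RPE/choroid, with the 2 locations alone, the 3 between fovea and periphery became 1 and the 0 between fovea and perimacula became 1. Without single eyes the 2 between perimacula and periphery became 0 to 2, the 1 between perimacula and nasal location 0 to 0 and the 4 between nasal location and periphery 2 to 3. Without the covariate the last pair became 0 and 2. The replicate block left 3 of those 4.

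For the tissue difference, the 4 of fovea and periphery became 2 to 4 without single eyes. The 2 of fovea and perimacula became 0 to 3 without single eyes, 4 with DESeq2, 1 without the foveal RPE/choroid of the right eye of RM04 and 4 without the left perimacula of RM04. The 2 of fovea and nasal location became 0 to 4 without single eyes, 1 with the replicate block, 1 without the covariate and 0 without that foveal library. The block changed no other number of members called.

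Counts over all genes moved by more than 1.5 times as follows. Retina fovea against perimacula, 5416 genes, gave 3225 and 3406 without the right eye of RM03 or RM04. Retina perimacula against nasal location, 231, gave 785 with DESeq2, 29 without the covariate, 14 to 66 without single eyes and 71 without the left perimacula of RM04. RPE/choroid fovea against perimacula, 7, gave 314 with DESeq2, 1 with the block, 1 without the covariate, 357 with 2 locations alone, 22 with nasal libraries and 0 without the foveal library of RM04 or 3 of the eyes. RPE/choroid perimacula against periphery, 5471, gave 3314 without the left eye of RM04. RPE/choroid fovea against nasal location, 57, gave 490 with DESeq2, 30 with the block, 4 without the covariate, 346 with 2 locations alone, 0 to 10 without single eyes and 26 without the foveal library of RM04. RPE/choroid perimacula against nasal location, 484, gave 1247, 269, 53, 1677 and 19 to 195 in the same order. The tissue difference of fovea and perimacula, 2494, gave 1641 without the covariate and 1023 and 867 without the right eye of RM03 or RM04, and that of fovea and nasal location, 3853, gave 2548 and 2510 without the right eye of RM03 or the left eye of RM04. The cause of these shifts was not tested.

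With 2 animals, differences between animals cannot be tested, and the lowest member level, NR2E3 in RPE/choroid, rests on as few as 8 estimated counts, so that its fold changes there are loosely set.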
